A study of Mus musculus with 9 samples.

Results

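The fibrillar collagen chains examined here are the products of 10 genes, Col1a1, Col1a2, Col3a1, Col5a1, Col5a2, Col5a3, Col11a1, Col11a2, Col24a1 and Col27a1, chosen by name from the 54532 Ensembl genes of the count table. Each name matched 1 gene. All 10 passed the filter on low counts in every comparison, so no member was lost. RNA was measured by sequencing 9 libraries of injured tibialis anterior muscle from C57/BL6J mice, with 3 libraries in each of 3 groups. The young PBS group (4 months, libraries 1, 2 and 3) and the old PBS group (24 months, libraries 2, 3 and 4) received barium chloride, which kills muscle fibres and starts regeneration, and then PBS. The old rMETRNL group (24 months, libraries 1, 2 and 3) received the same injury and then recombinant METRNL, a secreted protein also called Meteorin-like. PBS or rMETRNL was given 3 times, directly after injury and at 24 and 48 hours. The study text gives 0.1 ug of protein in 1 place and 0.1 ng in another, and gives whole muscle at day 8, whereas the series describes dissociated muscle cells at day 4. The labels do not state that libraries of a group came from separate mice. The study text gives n = 3 per group for this experiment without naming the unit. P-values therefore measure the spread between these libraries, which may be technical. There was no uninjured muscle and no young rMETRNL group, so age, injury and protein were not crossed.

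Fibrillar collagens are rod-like proteins of 3 chains wound into a long triple helix, and they assemble side by side into the banded fibrils that carry tension in skin, tendon, bone and the connective tissue of muscle. In muscle most of them are made by fibro-adipogenic progenitors, the interstitial mesenchymal cells, and by tendon fibroblasts. Type I and type III form the bulk of the fibrils, type V starts their assembly and limits their diameter, type XI does the same mainly in cartilage, and types XXIV and XXVII have a shorter helix with interruptions. After injury a provisional matrix of these collagens is laid down and later remodelled.

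Positions refer to GRCm38, because the gene identifiers of the table match an annotation of that build, although the submitters' processing notes name mm9. Col3a1 (chr1:45311538-45349706, plus strand) and Col5a2 (chr1:45374321-45503282, minus strand) are neighbours whose 3′ ends face each other across 24.6 kb. Col1a1 lies at chr11:94936224-94953042 and Col1a2 at chr6:4504814-4541544. Col5a1 lies at chr2:27886425-28039514 and Col5a3 at chr9:20770050-20815067. Col11a1 lies at chr3:114030540-114220718, Col11a2 at chr17:34039437-34066685, Col24a1 at chr3:145292472-145552011 and Col27a1 at chr4:63214004-63334991. All 10 are protein coding and are built from many short exons, from 51 in the principal transcripts of Col1a1 and Col3a1 to 67 in those of Col5a3 and Col11a1. Counts cover whole genes. Col5a1 shares 99 and 113 bases of its exons with 2 genes on the opposite strand, which held at most 30 counts in any library, and Col3a1 shares 141 bases with Gm47302 on the same strand, which held 0 counts in every library. The strand setting of the counting is not given in the sources used here.

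The start regions of 4 of the genes are shown because these genes bracket the results below. Col3a1 was the most abundant chain and Col1a2 came next per kb of principal transcript, while Col11a1 and Col11a2 were the chains whose levels departed from the rest. The sequences are from RefSeq (GRCm38.p6) and run from 250 bases before to 50 bases after the gene start in RefSeq, which for Col1a2 and Col11a2 is not the start given above. Capitals mark CCAAT, on either strand and so also written ATTGG, and TATAAA on the strand of the gene.
Col3a1 (chr1:45311288-45311587, plus strand): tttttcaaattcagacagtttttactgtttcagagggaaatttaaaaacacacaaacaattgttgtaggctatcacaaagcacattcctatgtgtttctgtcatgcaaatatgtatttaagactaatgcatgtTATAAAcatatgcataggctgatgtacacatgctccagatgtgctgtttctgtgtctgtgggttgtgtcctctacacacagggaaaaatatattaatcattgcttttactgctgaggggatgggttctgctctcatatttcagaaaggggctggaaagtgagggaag
Col1a2 (chr6:4505368-4505667, plus strand): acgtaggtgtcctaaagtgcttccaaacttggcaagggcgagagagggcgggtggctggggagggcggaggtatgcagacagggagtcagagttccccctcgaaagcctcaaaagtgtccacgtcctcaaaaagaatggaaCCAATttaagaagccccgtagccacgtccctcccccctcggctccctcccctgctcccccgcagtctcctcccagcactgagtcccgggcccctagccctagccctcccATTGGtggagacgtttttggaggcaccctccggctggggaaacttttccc
Col11a1 (chr3:114030290-114030589, plus strand): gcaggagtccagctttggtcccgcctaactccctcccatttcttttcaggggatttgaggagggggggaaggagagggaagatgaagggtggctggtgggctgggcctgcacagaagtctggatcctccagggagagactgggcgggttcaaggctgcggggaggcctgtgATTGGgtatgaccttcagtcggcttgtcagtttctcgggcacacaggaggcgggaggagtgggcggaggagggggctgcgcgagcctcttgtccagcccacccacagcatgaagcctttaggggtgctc
Col11a2 (chr17:34038888-34039187, plus strand): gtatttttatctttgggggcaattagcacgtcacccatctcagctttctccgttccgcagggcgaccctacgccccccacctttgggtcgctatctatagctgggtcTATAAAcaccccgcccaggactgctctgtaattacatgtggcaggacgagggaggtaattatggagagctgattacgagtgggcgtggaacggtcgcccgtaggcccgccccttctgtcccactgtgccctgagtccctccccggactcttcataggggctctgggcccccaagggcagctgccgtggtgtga
Start regions were matched for 8 of the 10 genes, all except Col1a1 and Col5a2. CCAAT was found in 3 of these 8 (Col1a2, Col5a3 and Col11a1), against 37.4% of all 32851 mouse start regions of the same length. TATAAA was found in 2 of them (Col3a1 and Col11a2), against 8.3% of all. No start region of a member held both. The G and C content of the 8 ran from 37.7% for Col3a1 to 75.0% for Col5a1. All but Col3a1 were above the median of 52.7% over all start regions. These matches are a description of the letters.

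Library totals ran from 16238700 to 22522560 counts, and 3 counts corresponded to 0.133 to 0.185 CPM before scaling. CPM is the count of a gene relative to the library total, and levels below are CPM scaled by edgeR's TMM factors. The old PBS libraries stood apart from each other more than those of the other groups did. Chi-square per degree of freedom was 51.2 to 169 between old PBS libraries and 10.9 to 45.4 within the other groups. None was therefore the same library sequenced again, which does not show whether they came from separate mice. All 5 brain markers (Mobp, Mbp, Gfap, Slc1a2, Snap25) and all 5 liver markers (Alb, Apoa1, Ttr, Apob, Fga) had counts in every old PBS library. Summed, brain markers were at 71.4 to 225 CPM in old PBS, 7.45 to 13.0 CPM in young PBS and 9.91 to 10.8 CPM in old rMETRNL, and Mobp and Snap25 were at 0 in every library of the latter groups. Liver markers summed to 7.23 to 78.9 CPM in old PBS and to at most 0.161 CPM elsewhere. The brain marker sum was highest in old PBS 4 and lowest in old PBS 3, the reverse of the order of most chain genes described next. Mobp, Mbp, Gfap and Snap25 each had the order of the sum. Slc1a2 did not, at 30.8, 21.1 and 17.8 CPM in old PBS 2, 3 and 4. Liver markers had another order, at 78.9, 30.1 and 7.23 CPM in old PBS 2, 3 and 4, so lowest in old PBS 4. Markers of newly formed fibres and myoblasts (Myod1, Myog, Myh3, Myh8, Myf5) summed to 3169 CPM in old PBS 3, 721 in old PBS 2 and 231 in old PBS 4. The part of these differences in the collagen results was not tested. Among the defining genes of the labelled tissue, all 6 markers of mature fibres were present in every library, at a sum of 66501 to 117064 CPM.

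Type I and type III chains were abundant in all 9 libraries and lowest in the old PBS group. Col3a1 encodes the only chain of type III collagen, the fine fibrils of young granulation tissue. Its level was 6111, 5557 and 7700 CPM in young PBS 1, 2 and 3, then 3198, 4494 and 1915 CPM in old PBS 2, 3 and 4, and 9198, 6674 and 5362 CPM in old rMETRNL 1, 2 and 3. Every old PBS library was below every library of the other groups, and the other groups overlapped. By counts, Col3a1 ranked between 11th in old rMETRNL 1 and 55th in old PBS 4 among all genes. Col1a1 encodes the pro-alpha1 chain of type I collagen. Its level was 2181, 2724 and 4131 CPM in young PBS, 1194, 2111 and 663 CPM in old PBS, and 3361, 2565 and 1988 CPM in old rMETRNL. Old PBS 3 lay just under the lowest young library and above old rMETRNL 3. Col1a2 encodes the partner chain of type I collagen. Its level was 2365, 2727 and 4228 CPM in young PBS, 1195, 1921 and 814 CPM in old PBS, and 3307, 2722 and 2185 CPM in old rMETRNL. For Col1a2 the old PBS libraries did not overlap with either of the other groups.

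**Figure D1:**
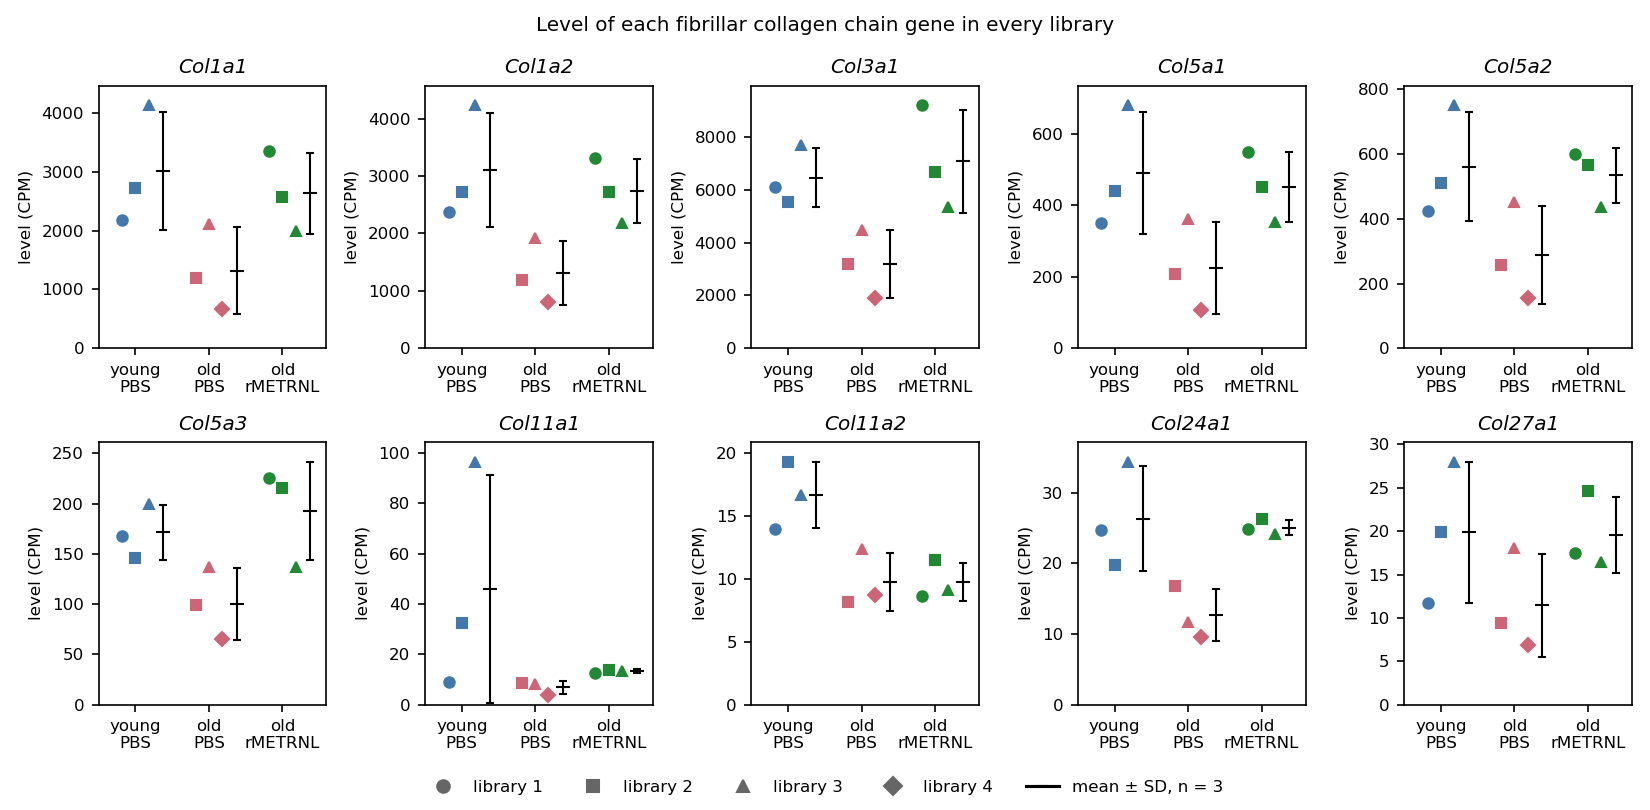
Level of each of the 10 chain genes in CPM (linear axis from 0) in every library of the young PBS, old PBS and old rMETRNL groups; marker shape gives the library number, and the black bar is the mean ± SD of 3 libraries. Old PBS 4 is the lowest library for 9 of the 10 genes, and Col11a2 alone has both old groups below all young libraries.

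Type V chains followed the same order at a lower level. Col5a1 encodes the chain present in nearly all type V molecules. Its level was 349, 439 and 679 CPM in young PBS, 207, 361 and 107 CPM in old PBS, and 550, 451 and 352 CPM in old rMETRNL. Col5a2 encodes the second chain of the common type V molecule. Its level was 423, 510 and 750 CPM in young PBS, 256, 453 and 154 CPM in old PBS, and 600, 565 and 437 CPM in old rMETRNL. For both genes old PBS 3 reached into the range of the other groups, while old PBS 2 and old PBS 4 lay below it. Col5a3 encodes the rarer alpha3 chain of type V, known from synovial tissue and the surroundings of blood vessels and fat. Its level was 168, 146 and 200 CPM in young PBS, 98.7, 137 and 65.4 CPM in old PBS, and 226, 216 and 137 CPM in old rMETRNL. All old PBS libraries were below the young ones, and old PBS 3 and old rMETRNL 3 were alike at 137 CPM.

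Both type XI chains had another pattern. Col11a1 encodes the pro-alpha1 chain of type XI collagen, which is best known from cartilage and is also made in developing tendon. Its level was 8.89, 32.3 and 96.5 CPM in young PBS, 8.55, 7.99 and 3.84 CPM in old PBS, and 12.5, 13.9 and 13.3 CPM in old rMETRNL. The young libraries differed 10.85-fold among themselves, and young PBS 1 lay below all old rMETRNL libraries and just above the old PBS ones. Col11a2 encodes the pro-alpha2 chain of type XI. Its level was 14.0, 19.3 and 16.7 CPM in young PBS, 8.14, 12.4 and 8.74 CPM in old PBS, and 8.67, 11.5 and 9.09 CPM in old rMETRNL. Both old groups lay below every young library and overlapped with each other. Col11a2 was also the only chain gene whose lowest library was not old PBS 4. The ratio of Col11a1 to Col11a2, per kb of transcript and chosen after its values were seen, was 0.448, 1.18 and 4.05 in young PBS, 0.738, 0.455 and 0.309 in old PBS, and 1.01, 0.845 and 1.03 in old rMETRNL.

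Within young PBS, 5 of 6 tendon markers and 3 of 6 cartilage and bone markers ordered the libraries as Col11a1 did, and Mkx, Sox9, Ibsp and Bglap did not. The order was not particular to these lists. Col1a1, Col1a2, Col5a1, Col5a2 and Col27a1 had it, as did the macrophage markers Adgre1, Csf1r, Cd68 and Lyz2, but not Mrc1 and C1qa. Its share over all genes was not computed. Tnmd, a membrane protein of tendon cells, was at 22.1, 39.9 and 84.3 CPM in young PBS 1, 2 and 3, in the order of Col11a1. It was at 13.1, 10.2 and 15.8 CPM in old PBS and at 27.7, 24.8 and 24.1 CPM in old rMETRNL. Not every tendon marker had this order of groups. By edgeR's fold change, 4 of the 6 were lower in old PBS than young PBS and 2 higher. Between old rMETRNL and old PBS 4 were higher and 2 lower. Scx was at 8.84, 9.15 and 14.4 CPM in young PBS and 12.0, 18.7 and 8.99 CPM in old PBS. In old rMETRNL Scx was at 7.07, 8.14 and 9.77 CPM. Acan, the large proteoglycan of cartilage, was at 0.289, 1.22 and 5.02 CPM in young PBS and at no more than 0.622 CPM in any old library. Summed over the 6 tendon markers (Scx, Tnmd, Mkx, Kera, Thbs4, Egr1), levels were 248 to 578 CPM in young PBS, 165 to 245 CPM in old PBS and 311 to 355 CPM in old rMETRNL. All 6 were detected in every library. The 6 cartilage and bone markers (Acan, Col2a1, Sox9, Ibsp, Bglap, Sp7) summed to only 6.64 to 20.6 CPM over the 9 libraries. Col2a1, the type II chain that pairs with type XI in cartilage, had 4, 8 and 31 counts in young PBS, 12, 11 and 4 in old PBS, and 7, 0 and 9 in old rMETRNL. The count of 0 in old rMETRNL 2 allows a level of up to 0.181 CPM before scaling, which covers counting error only. How much tendon tissue contributed to the collagen counts was not tested.

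**Figure D2:**
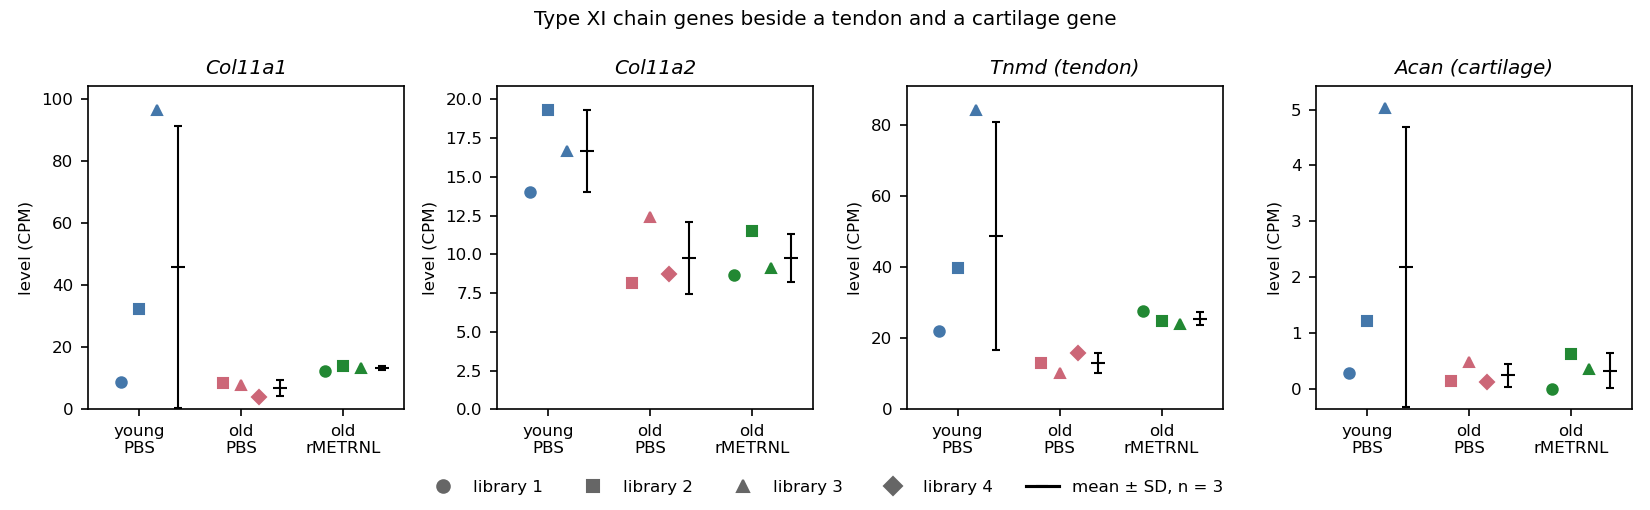
Levels in CPM (linear axes, each panel with its own scale) of Col11a1, Col11a2, the tendon gene Tnmd and the cartilage gene Acan in every library of the 3 groups; marker shape gives the library number, and bars are mean ± SD of 3 libraries. Col11a1, Tnmd and Acan are all lowest in young PBS 1 and highest in young PBS 3 among the young libraries, whereas Col11a2 peaks in young PBS 2 at 19.3 CPM. The order of Col11a1 is shared by genes outside the tendon and cartilage lists, such as Col1a1 and Lyz2.

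Short-helix chains were expressed at a low level. Col24a1 encodes type XXIV collagen, described in bone and developing eye. Its level was 24.7, 19.8 and 34.4 CPM in young PBS, 16.8, 11.7 and 9.62 CPM in old PBS, and 24.8, 26.3 and 24.1 CPM in old rMETRNL. Every old PBS library was lower than every other library, and the old rMETRNL libraries lay within 1.09-fold of each other. Col27a1 encodes type XXVII collagen, known from cartilage. Its level was 11.7, 19.9 and 28.0 CPM in young PBS, 9.35, 18.1 and 6.85 CPM in old PBS, and 17.5, 24.6 and 16.5 CPM in old rMETRNL. Old PBS 3 lay inside the range of both other groups.

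Compared per kb of principal transcript, the upper 6 chains kept 1 order in all 9 libraries. From high to low it ran Col3a1, Col1a2, Col1a1, Col5a2, Col5a1 and Col5a3. In young PBS the levels were 1160 ± 200 (SD, n = 3), 581 ± 185, 508 ± 170, 84.7 ± 25.6, 58.2 ± 20.3 and 28.0 ± 4.38 CPM per kb. In old PBS they were 576 ± 232, 245 ± 105, 223 ± 123, 43.5 ± 23.0, 26.8 ± 15.2 and 16.4 ± 5.86 CPM per kb. In old rMETRNL they were 1272 ± 350, 512 ± 105, 445 ± 116, 80.5 ± 13.0, 53.6 ± 11.8 and 31.5 ± 7.95 CPM per kb. Group means of Col1a2 and Col1a1 differed by less than the SD between libraries in each group. The order of the type I chains also depended on the length used, since with all annotated exons merged Col1a2 was at 250 CPM per kb in young PBS and Col1a1 at 459. Below them, Col11a1, Col11a2, Col24a1 and Col27a1 changed places between libraries and shared ranks 7 to 10. Their group means ran from 0.886 to 5.99 CPM per kb.

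Old PBS muscle was compared with young PBS muscle to ask how injured muscle differs between the ages. Without uninjured muscle this cannot show how age changes the response to injury. All 10 chain genes had a lower mean in old PBS, and none passed an adjusted p of 0.05 in edgeR's quasi-likelihood test, against 0.0643% of the 15560 genes tested. The log2 fold change was -1.25 ± 0.39 (SE) for Col1a2, -1.19 ± 0.45 for Col1a1 and -1.01 ± 0.37 for Col3a1. For the type V chains it was -1.12 ± 0.43 (Col5a1), -0.96 ± 0.40 (Col5a2) and -0.77 ± 0.28 (Col5a3). For Col11a1 it was -2.76 ± 0.75, for Col11a2 -0.77 ± 0.23, for Col24a1 -1.05 ± 0.28 and for Col27a1 -0.79 ± 0.41. The median over the 10 was -1.03, beside 0.014 over all genes tested. At an unadjusted p below 0.05, 9 of the 10 were lower (all but Col27a1), against 2.42% of all genes lower at that level. Adjusted p ranged from 0.334 for Col24a1 to 0.948 for Col27a1. In 7 of the 10 (Col1a1, Col1a2, Col3a1, Col5a3, Col11a1, Col11a2 and Col24a1) the groups did not overlap, with old PBS lower, as in 5.25% of all genes. DESeq2 called 3 of the 10 lower, Col1a2 (adjusted p = 0.0116), Col3a1 (0.0431) and Col24a1 (0.0435). Of the 18738 genes it tested, 1.41% were called in either direction, 238 of them higher and 27 lower. Without old PBS 3, edgeR called 2 of the 10 lower, Col1a2 (log2 fold change -1.63, adjusted p = 0.0431) and Col11a2 (-0.99, adjusted p = 0.0495). Of all 15884 genes in that fit, 2.52% were called in either direction, 289 of them higher and 112 lower. The 10 genes share libraries and cells of origin, so their counts are not independent observations.

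Old rMETRNL muscle was compared with old PBS muscle to ask what the protein changes in aged, injured muscle. Of the 10 genes, 9 had a higher mean in old rMETRNL, while Col11a2 had a log2 fold change of -0.01 ± 0.23 (SE). None passed an adjusted p of 0.05 in edgeR, against 0.108% of the 15682 genes tested. The log2 fold change was 1.14 ± 0.39 for Col3a1, 1.06 ± 0.36 for Col1a2 and 0.99 ± 0.42 for Col1a1. It was 1.0 ± 0.40 for Col5a1, 0.89 ± 0.36 for Col5a2 and 0.94 ± 0.30 for Col5a3. For Col11a1 it was 0.95 ± 0.29, for Col24a1 0.98 ± 0.22 and for Col27a1 0.76 ± 0.34. The median over the 10 was 0.96, beside -0.006 over all genes tested. At an unadjusted p below 0.05, 8 were higher (all but Col11a2 and Col27a1), against 3.51% of all genes higher at that level. Adjusted p ranged from 0.166 for Col24a1 to 0.996 for Col11a2. The groups did not overlap, with old rMETRNL higher, for 4 genes (Col1a2, Col3a1, Col11a1 and Col24a1), as in 6.99% of all genes. DESeq2 called 3 higher, Col24a1 (adjusted p = 0.017), Col3a1 (0.0194) and Col1a2 (0.0289). Of the 19436 genes it tested, 1.84% were called in either direction, 43 of them higher and 314 lower. Col3a1 and Col24a1 are among genes the study itself picked on these libraries, as fibrosis markers, so their difference is not independent evidence. The study text describes extracellular matrix pathways as upregulated in old rMETRNL against old PBS. It also describes collagen formation pathways as upregulated in old muscle and reversed by rMETRNL. Here Col3a1 and Col24a1 had a lower mean in old PBS than in either other group. By qPCR in sorted fibro-adipogenic progenitors, the study reports Col1a1 and Fn1 higher in old PBS than in either other group. It also reports more stained collagen in old PBS muscle than in old rMETRNL muscle. In the libraries here Col1a1 and Fn1 had their lowest mean in old PBS. Sorted cells and stained protein come from other samples and are other measures than the RNA counted here. Col11a2 was the only member with a fitted log2 fold change below 0 here, and its mean CPM was 9.75 in old PBS and 9.77 in old rMETRNL.

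The call in this comparison turned on old PBS 3. Without that library, edgeR called 9 of the 10 chain genes higher in old rMETRNL, all but Col11a2. Of the 15981 genes then tested, 9.76% were called in either direction, 604 of them higher and 956 lower. The log2 fold changes of the 9 chain genes ran from 0.92 (Col24a1, adjusted p = 0.0359) to 1.52 (Col5a1, adjusted p = 0.0156). Col3a1 stood at 1.47 ± 0.32 (SE, adjusted p = 0.0227). Leaving out any other single library gave 0 calls among the 10. The exclusion was not based on a label. Old PBS 3 had the lowest brain marker sum of the old PBS libraries. It also had the highest sum of new fibre and myoblast markers (3169 CPM) and the lowest of mature fibre markers (66501 CPM) among all libraries. The part of these traits in the calls was not tested.

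**Figure D3:**
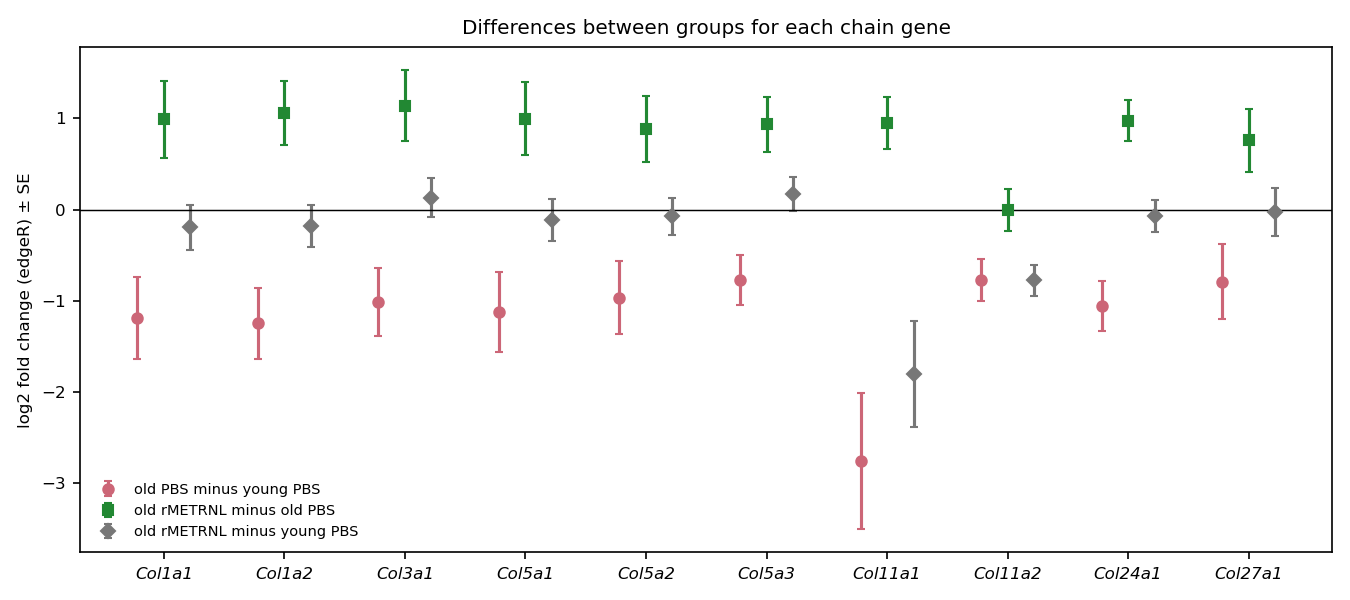
Log2 fold change ± SE from edgeR for each of the 10 chain genes in the 3 comparisons (circles, old PBS minus young PBS; squares, old rMETRNL minus old PBS; diamonds, old rMETRNL minus young PBS), 3 libraries a group. Old PBS is lower than young PBS throughout, the squares of 9 genes lie 0.76 to 1.14 above 0, and the diamonds stand near 0 except for Col11a1 and Col11a2; no point passed an adjusted p of 0.05.

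Old rMETRNL muscle was compared with young PBS muscle to ask how treated aged muscle stands beside young muscle. For 8 of the chains the log2 fold change lay between -0.19 ± 0.25 (SE) for Col1a1 and 0.17 ± 0.18 for Col5a3. The exceptions were the type XI chains, at -1.80 ± 0.58 for Col11a1 and -0.77 ± 0.17 for Col11a2. Both were below an unadjusted p of 0.05 and lower in old rMETRNL, 2 of 10 beside 1.03% of all genes lower at that level. In edgeR, 0 of the 10 and 0 of 15396 genes (0%) passed the adjusted threshold, and DESeq2 also called 0 of the genes it tested (0%). Of all genes, 371 had an unadjusted p below 0.05 in edgeR. The adjusted p was 1.0 for every chain gene after rounding. Only Col11a2 had groups that did not overlap, with old rMETRNL lower, as in 2.96% of all genes. The median over the 10 was -0.10, beside 0.001 over all genes tested. Without young PBS 3 the log2 fold change of Col11a1 was -0.65 in this comparison and -1.60 between old PBS and young PBS. The 3 comparisons share libraries, so a low old PBS group enters both of the first with opposite sign, and their likeness is no separate observation.

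Summed over the 10 genes, chain counts took 1.12, 1.22 and 1.90% of all counts in young PBS 1, 2 and 3. They took 0.567, 1.11 and 0.310% in old PBS 2, 3 and 4, and 1.84, 1.42 and 1.03% in old rMETRNL 1, 2 and 3. Old PBS 3 lay just under the lowest young library and above old rMETRNL 3. The difference in mean log2 share was -1.24 between old PBS and young PBS (exact permutation test, two-sided, p = 0.1, the smallest that 3 against 3 libraries allow). It was 1.26 between old rMETRNL and old PBS (exact permutation p = 0.2) and 0.02 between old rMETRNL and young PBS (exact permutation p = 1.0). With so few libraries this test cannot reach 0.05. The difference between old PBS and young PBS was -1.712 without old PBS 3 and -0.792 without old PBS 4, and that between old rMETRNL and old PBS was 1.731 and 0.811 in the same order. With TMM effective library sizes as the denominator and no library left out, old PBS 3 was at 0.953% and old rMETRNL 3 at 1.05%. The old groups then did not overlap. The difference was then -1.174 between old PBS and young PBS and 1.15 between old rMETRNL and old PBS (exact permutation p = 0.1 each). Col3a1, Col1a2 and Col1a1 made up 89.5 to 91.7% of the summed counts in every library, and Col3a1 alone 43.1 to 53.2%.

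In bulk RNA, fewer collagen-making cells and less collagen RNA per cell cannot be told apart. The 10 markers of fibro-adipogenic progenitors (Pdgfra, Osr1, Hic1, Tcf21, Twist2, Prrx1, Dpp4, Pi16, Clec3b, Ly6a) summed to 532 to 625 CPM in young PBS, 503 to 610 CPM in old PBS and 603 to 846 CPM in old rMETRNL. Tcf21 was at 0 in 8 of the 9 libraries and Pdgfra was detected in all 9. None of the 9 markers tested passed an adjusted p of 0.05 in edgeR in any comparison. Between old PBS and young PBS their median log2 fold change was -0.13, with 7 of 9 lower, and between old rMETRNL and old PBS it was 0.38, with 8 of 9 higher. Pdgfra, the receptor that defines these cells, was at 78.8, 82.4 and 94.2 CPM in young PBS, 77.6, 77.3 and 66.8 CPM in old PBS, and 116, 95.1 and 84.5 CPM in old rMETRNL. The log2 ratio of summed chain counts to the geometric mean of the 10 markers, with 1 added to each marker count, was 9.65 ± 0.46 (SD, n = 3) in young PBS, 8.65 ± 0.83 in old PBS and 9.47 ± 0.18 in old rMETRNL. Old PBS 3 stood at 9.48, within the range of the other groups, and old PBS 4 at 7.82. The difference was -1.01 between old PBS and young PBS (exact permutation p = 0.3), 0.83 between old rMETRNL and old PBS (exact permutation p = 0.2) and -0.18 between old rMETRNL and young PBS (exact permutation p = 0.8). With 1 library left out the difference between old PBS and young PBS ran from -1.427 (without old PBS 3) to -0.593 (without old PBS 4) and that between old rMETRNL and old PBS from 0.413 (without old PBS 4) to 1.247 (without old PBS 3). Against Pdgfra alone the ratio was 7.33 ± 0.21, 7.10 ± 0.13 and 6.36 ± 0.57 in young PBS, old rMETRNL and old PBS. Macrophage markers (Adgre1, Csf1r, Cd68, Lyz2, Mrc1, C1qa) summed to 1522 to 1788 CPM in young PBS, 1124 to 1555 CPM in old PBS and 1664 to 1945 CPM in old rMETRNL. Endothelial markers (Pecam1, Cdh5, Kdr, Tek, Emcn) summed to 303 to 371, 203 to 307 and 299 to 396 CPM in the same order. The part of these cell types in the collagen result was not tested.

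**Figure D4:**
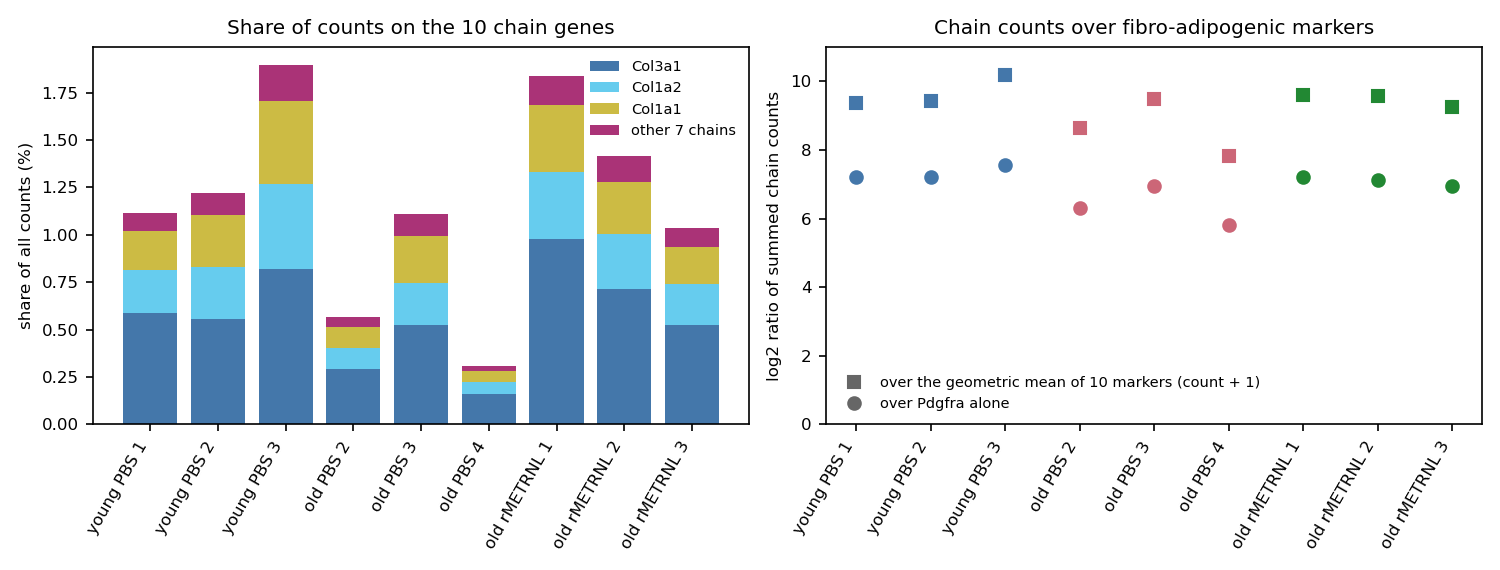
Left, share of all counts (%) on Col3a1, Col1a2, Col1a1 and the other 7 chain genes in each library, stacked from 0; right, log2 ratio of summed chain counts to the geometric mean of 10 fibro-adipogenic markers (squares) and to Pdgfra alone (circles), coloured by group. The stacks run from 0.310% in old PBS 4 to 1.90% in young PBS 3, and old PBS 2 and old PBS 4 are lowest in both panels.

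Ratios between the abundant chains varied less than their levels did. Per kb of transcript, Col1a1 to Col1a2 was 0.871 ± 0.036 (SD, n = 3) in young PBS, 0.875 ± 0.13 in old PBS and 0.862 ± 0.049 in old rMETRNL. These are chains of the same type I molecule. Col5a1 to Col1a1, the ratio of a fibril-starting to a bulk chain, ran only from 0.113 to 0.125 over all 9 libraries, while Col1a1 itself differed 6.2-fold between its highest and lowest library. Col3a1 to Col1a1 was 2.99, 2.17 and 1.99 in young PBS, 2.85, 2.27 and 3.08 in old PBS, and 2.92, 2.77 and 2.87 in old rMETRNL. The lowest ratios of type III to type I were in young PBS 3, young PBS 2 and old PBS 3. Col5a3 to Col5a1 was 0.508 ± 0.14 in young PBS, 0.671 ± 0.16 in old PBS and 0.585 ± 0.064 in old rMETRNL. Col5a1 to Col5a2 was 0.650, 0.679 and 0.713 in young PBS, 0.637, 0.628 and 0.548 in old PBS, and 0.722, 0.630 and 0.636 in old rMETRNL. It was the only tested ratio whose groups did not overlap in any comparison, old PBS being below young PBS (log2 difference -0.17, exact permutation p = 0.1, adjusted over 24 tests 0.96).

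Ratios with a scarce chain varied more. Col11a1 to Col5a1 was 0.0279, 0.0807 and 0.156 in young PBS, 0.0453, 0.0243 and 0.0392 in old PBS, and 0.0249, 0.0337 and 0.0413 in old rMETRNL. Only young PBS 2 and young PBS 3 stood out. Col24a1 to Col27a1 was 2.26, 1.06 and 1.31 in young PBS, 1.92, 0.687 and 1.5 in old PBS, and 1.51, 1.14 and 1.55 in old rMETRNL. Col24a1 to Col1a1 ran from 0.00459 in old PBS 3 to 0.0120 in old PBS 4, so its extremes both fell in the old PBS group. For the 8 ratios in 3 comparisons, 24 exact permutation tests in all, 1 reached the smallest possible p of 0.1, and no adjusted p was below 0.96. Col11a2 to Col5a1, chosen after its values were seen and given without a test, was 0.0623, 0.0685 and 0.0385 in young PBS, 0.0614, 0.0533 and 0.127 in old PBS, and 0.0246, 0.0399 and 0.0402 in old rMETRNL. Old PBS 4 was highest and old rMETRNL 1 lowest.

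**Figure D5:**
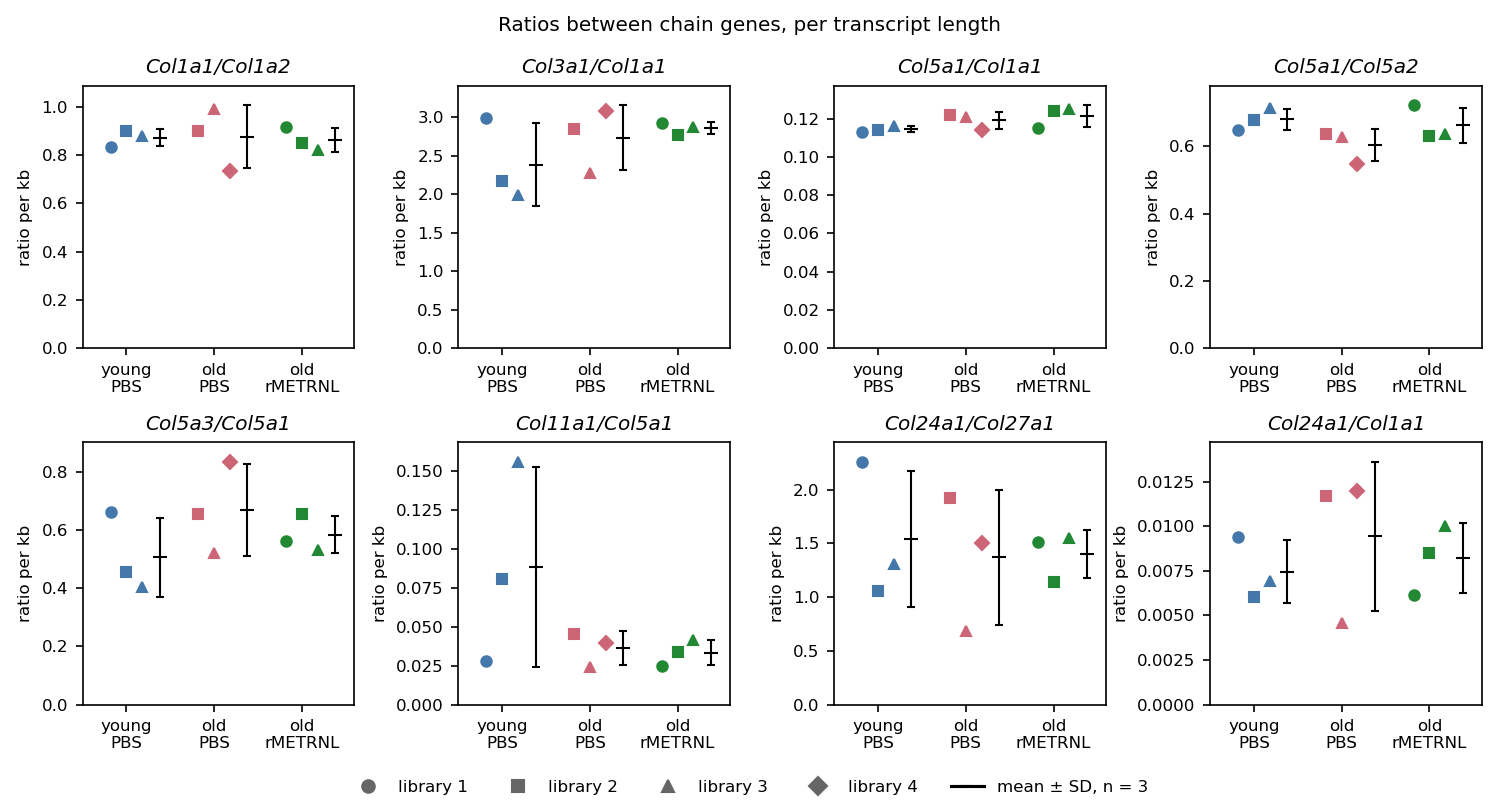
Ratio between pairs of chain genes, each count divided by its principal transcript length, in every library of the 3 groups (linear axes from 0); marker shape gives the library number, and bars are mean ± SD of 3 libraries. Col5a1/Col1a1 stays between 0.113 and 0.125, while Col11a1/Col5a1 spreads from 0.0279 to 0.156 within young PBS alone.

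The SD of log2 CPM within a group, as a median over the 10 genes, was 0.43 in young PBS, 0.62 in old PBS and 0.30 in old rMETRNL. Over all 16124 genes kept it was 0.21, 0.36 and 0.18, and over the 9227 of them with a mean of at least 10 CPM it was 0.15, 0.30 and 0.13. Col11a1 had the highest SD in young PBS (1.71) and one of the lowest in old rMETRNL (0.08). Col5a1 had the highest in old PBS (0.88), where its level differed 3.36-fold. Col24a1 in old rMETRNL had the lowest of all, 0.06. Old PBS 4 was the lowest of the 9 libraries for 9 of the 10 genes, and young PBS 3 the highest for 7.

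Genes that fold, cut, crosslink and bind fibrillar collagens mostly had the same direction, with a smaller median difference. Of 54 such genes listed, 52 could be tested in edgeR between old PBS and young PBS, of which 49 were lower, with a median log2 fold change of -0.47 beside 0.014 over all genes. Between old rMETRNL and old PBS 48 of 52 were higher, with a median of 0.50 beside -0.006. Between old rMETRNL and young PBS 29 of 51 were higher, with a median of 0.02. None passed an adjusted p of 0.05 in any of these. At an unadjusted p below 0.05, 15 were lower in old PBS than young PBS and 0 higher, where 2.42% of all genes were lower. Likewise 19 were higher in old rMETRNL than old PBS and 0 lower, where 3.51% of all genes were higher. Among 18 genes of chain folding and modification the median was -0.39 between old PBS and young PBS and 0.48 between old rMETRNL and old PBS. The words "for rMETRNL" below name the latter comparison, not a separate effect of the protein. The lowest p for rMETRNL was that of P3h1, a prolyl 3-hydroxylase, at 40.1 ± 6.07 (SD, n = 3), 24.2 ± 5.60 and 39.6 ± 4.04 CPM in young PBS, old PBS and old rMETRNL (edgeR log2 fold change 0.71 ± 0.20 (SE), adjusted p = 0.324). Fkbp10, a prolyl isomerase that acts on procollagen, was at 39.4 ± 5.34, 19.9 ± 7.41 and 35.9 ± 7.39 CPM. It was the only listed gene called by DESeq2 between old PBS and young PBS. Of the genes DESeq2 tested, 1.41% were called in either direction, 27 of them lower.

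Propeptide cleavage, which turns procollagen into fibril-forming collagen, had 7 genes tested. Their median was -0.54 between old PBS and young PBS and 0.76 between old rMETRNL and old PBS. Bmp1, the protease that removes the C-terminal propeptide, was at 115 ± 7.58 (SD, n = 3), 76.1 ± 21.8 and 134 ± 28.3 CPM in young PBS, old PBS and old rMETRNL (edgeR log2 fold change 0.82 ± 0.25 (SE) for rMETRNL, adjusted p = 0.384). All 5 lysyl oxidase genes, which crosslink fibrils, had a lower mean in old PBS than young PBS and a higher one in old rMETRNL than old PBS. Loxl2 was at 60.2 ± 9.43, 38.3 ± 4.15 and 68.1 ± 14.9 CPM (edgeR log2 fold change 0.83 ± 0.19 (SE) for rMETRNL, adjusted p = 0.191). Over 14 genes of the fibril surface the medians were -0.47 and 0.61. Dpt, dermatopontin, which binds decorin and collagen, was at 217 ± 28.4, 154 ± 21.8 and 270 ± 55.6 CPM (edgeR log2 fold change 0.81 ± 0.22 (SE) for rMETRNL, adjusted p = 0.297). DESeq2 called 4 listed genes higher in old rMETRNL than old PBS, Loxl2, Col12a1, Dpt and Sparc. Of the genes it tested, 1.84% were called in either direction, 43 of them higher. Sparc, a collagen chaperone outside the cell, was at 1823 ± 219, 1014 ± 337 and 2059 ± 510 CPM. Col12a1, which coats fibrils in tendon and muscle, was at 201 ± 176, 32.2 ± 15.9 and 75.6 ± 21.9 CPM. Its young libraries were uneven, from 41.4 to 390 CPM, as were those of Col11a1, from 8.89 to 96.5 CPM. Collagen receptors had medians of -0.41 and 0.25 over 8 genes tested. Itga2, a chain of a collagen-binding integrin, had the lowest p among them at 3.98 ± 1.35, 2.35 ± 0.36 and 4.13 ± 0.80 CPM (edgeR adjusted p = 0.499 for rMETRNL).

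Outside both lists, the genes whose pattern was most like the summed level of the chains were sought among the 12722 genes with at least 1 CPM in every library. Likeness was Pearson's r of log2 CPM over the 9 libraries, which share 3 groups, so r is a description. Col6a1 and Col6a2, chains of the beaded type VI collagen around muscle fibres, both had r = 0.989. Col6a1 was at 521, 482 and 662 CPM in young PBS, 278, 419 and 205 CPM in old PBS, and 671, 567 and 402 CPM in old rMETRNL. Upp1, a uridine phosphorylase, followed at 0.983 with a level of only 1.01 to 2.99 CPM. Mcm5, a subunit of the replicative helicase, and Hdac7, a histone deacetylase, both had r = 0.982. Each of the 5 was lowest in old PBS 4, as was the summed level they were chosen to match, so this follows from the choice.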

How the data were processed

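RNA of injured tibialis anterior muscle was sequenced paired-end in 9 libraries. The file the authors deposited holds raw counts per Ensembl gene, not normalized, in 1 column a library. The submitters' processing notes name STAR, featureCounts and mm9, with no versions, whereas 54495 of 54532 gene identifiers are in GENCODE M21 (GRCm38), which was used for names, positions and lengths. Groups were taken from the labels. Each pair of groups was compared on its 6 libraries with edgeR 4.0.16 in R 4.3.3 (filterByExpr, TMM, quasi-likelihood test, Benjamini-Hochberg adjustment over all genes, threshold 0.05), and with DESeq2 1.42.0 as an alternative. SEs were derived from the fold change and F. Log2 CPM used a prior count of 2. Levels between genes were divided by the principal transcript length. Shares and ratios were compared by two-sided exact permutation tests. The edgeR and DESeq2 fits were tested on simulated data with known changes.

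The members and lists were chosen with earlier results of these data known. Named genes are all members, in each assembly subgroup the gene of lowest p for old rMETRNL against old PBS, any listed gene past the threshold, and the 5 genes most like the summed level; Fkbp10, Col12a1 and Sparc were named after their values were seen. The fits of the chain genes were repeated with size factors from DESeq2, without the filter, with at least 10 counts required in every library, with all 9 libraries in the fit and with the replicate number as a block. Shares and ratios were repeated with other denominators, added or summed counts and the block, and these fits, shares and ratios with each library left out in turn. The levels of assembly genes and markers, the spread and the likeness were computed with 1 setting, and the fits of the assembly genes also with DESeq2.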

Additional observations from a re-analysis of the deposited data

How the results depend on the processing

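In edgeR, 0 of the 10 chain genes were called in each comparison with the settings used above. DESeq2 called 3 for old PBS against young PBS and 3 for old rMETRNL against old PBS. Without a filter on low counts edgeR called 2, 6 and 2 in the 3 comparisons (old PBS against young PBS, old rMETRNL against old PBS, old rMETRNL against young PBS). That fit gave Col11a1 an adjusted p of 2.55e-33 in the last, beside 1.0 with the filter, so the calls without the filter are not relied on. With 1 library left out the number called in edgeR ran from 0 to 2 and from 0 to 9 in the first 2 comparisons, the higher value being the one without old PBS 3 each time, and was 0 throughout in the other. DESeq2's size factors, at least 10 counts in every library and a fit of all 9 libraries also gave 0 in each comparison. All 10 genes stayed lower in old PBS than young PBS under every alternative run, and all but Col11a2 stayed higher in old rMETRNL than old PBS. The log2 fold change of Col11a2 between the old groups was 0.008 without the filter and ran from -0.139 to 0.208 with a library left out.

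Between old rMETRNL and young PBS the sign of most small differences turned with the library left out. The ranges of the log2 fold change were -0.404 to 0.105 (Col1a1), -0.348 to 0.105 (Col1a2), -0.101 to 0.297 (Col3a1), -0.313 to 0.194 (Col5a1), -0.243 to 0.194 (Col5a2), -0.239 to 0.17 (Col24a1) and -0.301 to 0.303 (Col27a1). The log2 difference in the share of counts ran from -0.182 to 0.252, was -0.024 with TMM effective library sizes and -0.025 without Col1a1, Col1a2 and Col3a1. The log2 difference relative to fibro-adipogenic markers ran from -0.329 to 0.083. In the other comparisons both kept their sign with each library left out in turn.

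The ratio differences that follow changed sign with a library left out, except Col5a3/Col5a1. Between old rMETRNL and old PBS the log2 ranges were -0.133 to 0.083 (Col1a1/Col1a2), -0.054 to 0.165 (Col3a1/Col1a1), -0.346 to -0.005 (Col5a3/Col5a1), -0.372 to 0.088 (Col11a1/Col5a1), -0.288 to 0.452 (Col24a1/Col27a1) and -0.558 to 0.138 (Col24a1/Col1a1). On summed group counts, Col11a1/Col5a1 differed by 0.059 and Col24a1/Col1a1 by 0.134. Between old rMETRNL and young PBS they were -0.06 to 0.02 (Col1a1/Col1a2), -0.309 to 0.237 (Col24a1/Col27a1) and -0.021 to 0.337 (Col24a1/Col1a1), and between old PBS and young PBS -0.529 to 0.211 (Col24a1/Col27a1) and, around a value near 0, -0.098 to 0.118 (Col1a1/Col1a2).

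The labels give the groups shared replicate numbers, but deviations of same-numbered young PBS and old rMETRNL libraries correlated at 0.023, -0.051 and -0.178. Those of young PBS and old PBS correlated at 0.114 and 0.412, and those of old PBS and old rMETRNL at -0.049 and -0.316, so the numbers are not taken to pair the libraries. With the replicate number as a block edgeR called 0 of the 10 genes in each comparison. The share of counts then differed by -0.941 for old PBS against young PBS and by 0.61 for old rMETRNL against old PBS, each over 2 shared numbers, and the value relative to fibro-adipogenic markers by -0.742 and 0.355. Signs turned under the block for Col11a2 (0.015) and for the ratios Col5a3/Col5a1 (0.018), Col11a1/Col5a1 (0.169) and Col24a1/Col1a1 (0.336) between the old groups, and for Col27a1 (0.034) between old rMETRNL and young PBS. Exact tests of 3 libraries against 3 cannot go below p = 0.1, so their p-values say nothing about stability.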
